A study of Mus musculus with 5 samples.

Results

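The Fc receptor genes described here are Fcgr1, Fcgr2b, Fcgr3, Fcgr4, Fcer1g, Fcgrt and Fcrls, a set of 7 genes named by symbol and found among the 41388 Ensembl gene IDs of the deposited tables through their gene IDs. All 7 were matched and all 7 passed the filter on low counts. RNA sequencing libraries had been made from macrophages sorted out of mouse aortas. For the adventitia, 3 libraries came from C57BL/6 mice of genotype ApoE-/-, with 6 mice named for the group, on a high-fat diet for 28 weeks, and held cells of the outer layer of the whole aorta sorted as live (PI-) and CD64+. The 2 intima libraries came from C57BL/6 mice with no genotype change named, each a pool of 5 mice, and held cells of the thoracic aorta with its outer layer taken off, sorted as live (PI-) CD64+ CD11c+ MHC II+. Both kinds of cell were released with collagenases and hyaluronidase. Ages are not given in the sources used here, nor is a diet for the intima mice. Genotype, diet, aortic segment, layer and gate therefore differ together, and their parts in any difference cannot be told apart. The labels do not say how the 6 knockout mice were divided, so p-values measure only the spread between these libraries, which may be technical.

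Fc receptors bind the constant part of antibodies and pass the signal of an immune complex into the cell. On mouse macrophages the activating IgG receptors Fcgr1 (CD64), Fcgr3 and Fcgr4 lack a signalling tail of their own and pair with the gamma chain encoded by Fcer1g, which carries an activating motif called ITAM. Fcgr2b is the inhibitory IgG receptor, whose tail carries an ITIM motif and recruits phosphatases. Fcgrt encodes the heavy chain of the neonatal Fc receptor FcRn, which returns IgG and albumin from endosomes to the cell surface. Fcrls encodes the Fc receptor-like molecule S, known as a marker gene of microglia and some other tissue macrophages.

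The libraries held 3941381 to 20806925 counted reads, and the floor of 3 reads lay between 0.144 and 0.761 CPM, the deposited unit that divides a gene's reads by its library's total. Every member had at least 454 reads in every library, so the spread between libraries and not counting error set the precision. All 10 macrophage markers looked at were read in both groups, among them C1qb at 6237 to 9987 CPM. Between replicates the common biological coefficient of variation, as edgeR names it, was 1.28 in the intima and 0.702 in the adventitia over the 13408 tested genes. This spread may be technical in part. The median log2 difference over all 13408 tested genes, intima minus adventitia as throughout, was 0.14 with TMM scaling, -0.02 with RLE scaling, -0.09 with library size alone and -0.35 with upper-quartile scaling.

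Of the Fc receptor genes the inhibitory receptor gene Fcgr2b differed most between the groups. The log2 differences of the activating receptor genes Fcgr3 (0.39, SE 0.47) and Fcgr4 (0.11, SE 0.48) were smaller than their standard errors. With so few libraries this does not show equal levels. None of the 7 genes passed the quasi-likelihood test of edgeR after Benjamini-Hochberg adjustment over all tested genes, where 0.671% of the 13408 genes were called. At an unadjusted p under 0.05 the test gave 1 of the 7, Fcgr2b, against 22.4% of all tested genes and 14.3% in the negative direction. The log2 difference was below 0 for 5 of the 7, as for 46.6% of tested genes. DESeq2 on the same genes and limma voom each called 1 of the 7, again Fcgr2b, where they called 9.05% of genes (5.32% lower in the intima) and 6.26% (4.66% lower). DESeq2 with its own filter called 0 of the 7, where it called 10.9% of genes (8.39% lower). Without intima replicate 1 edgeR called 2 of the 7, Fcgr2b and Fcer1g, where it called 2.5% of genes (1.03% lower). On the deposited CPM scale the intima values of Fcgr2b, Fcer1g, Fcgrt and Fcrls all lay below the adventitia values, 4 of the 7, where 26.4% of all tested genes did so. With TMM-normalised CPM 3 of the 7 did so, without Fcer1g, against 23.2% of tested genes. None of the 7 had its intima values above its adventitia values, where 14.1% of tested genes did, and 40.5% were apart in either direction. The median log2 difference of the 7 genes was -0.38. In bulk samples fewer cells of a type and less RNA per cell cannot be told apart, and this holds for every level below.

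**Figure D1:**
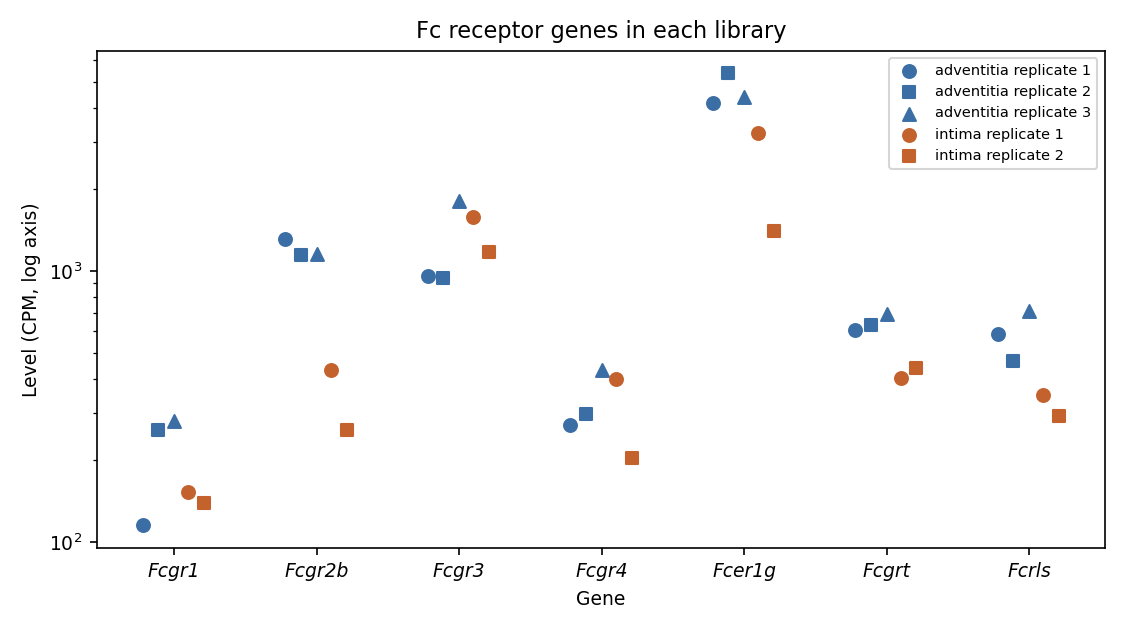
Level of each Fc receptor gene in each library, in CPM on a log axis, with 1 point per library (3 adventitia in blue, 2 intima in orange). The intima points of Fcgr2b, at 259 and 429.7 CPM, sit well below the adventitia points at 1143 to 1308 CPM, while those of Fcgr1, Fcgr3 and Fcgr4 overlap.

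Fcgr1 encodes CD64, the high-affinity IgG receptor, and its protein was part of both sorting gates. The gene (ENSMUSG00000015947) lies on the minus strand of chromosome 3 from 96282909 to 96293969 in GRCm38, as a protein-coding gene with 6 exon blocks. It had 454, 2612 and 2812 reads in the adventitia libraries and 2282 and 2890 in the intima libraries, which is 115, 259 and 280 CPM against 152 and 139 CPM. Adventitia replicate 1 was the lowest of the 5 and the other adventitia libraries were the highest, so the intima values fell inside the adventitia range. The means were 218 ± 89.6 CPM (SD, n = 3) in the adventitia and 146 ± 9.57 CPM (SD, n = 2) in the intima. The log2 difference of -0.37 was smaller than its standard error of 0.52 and did not pass the test (adjusted p = 0.739 in edgeR). Fcgr1 varied more among the adventitia libraries, 2.43-fold from lowest to highest, than any other member. Without adventitia replicate 1 the difference was -0.77 with an adjusted p of 0.494 in edgeR.

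The sequence before the start of Fcgr1 is shown because this is the gene of the gate, and that of Fcgr2b because this gene differed most. Both are the 250 bases before the gene's start in RefSeq (GRCm38.p6), from chr3:96293970-96294219 and chr1:170976072-170976321, both on the minus strand. The RefSeq start of Fcgr2b lies inside the bounds that the files give the gene, so its window does too. Capitals mark GAGGAA, a core bound by the myeloid factor PU.1, and TTCNNNGAA, the palindromic core bound by STAT factors, searched on both strands.
Fcgr1: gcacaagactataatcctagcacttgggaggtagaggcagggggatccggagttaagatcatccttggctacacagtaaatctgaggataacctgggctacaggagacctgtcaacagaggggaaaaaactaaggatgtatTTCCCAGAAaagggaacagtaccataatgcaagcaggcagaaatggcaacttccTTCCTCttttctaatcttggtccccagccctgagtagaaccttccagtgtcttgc
Fcgr2b: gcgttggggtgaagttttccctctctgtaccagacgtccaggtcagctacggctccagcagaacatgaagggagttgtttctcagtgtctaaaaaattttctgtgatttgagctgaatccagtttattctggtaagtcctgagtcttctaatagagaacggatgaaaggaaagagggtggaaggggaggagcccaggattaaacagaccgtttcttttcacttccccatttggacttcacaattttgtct
The Fcgr1 window held TTCNNNGAA once, beginning 109 bases before the start, and GAGGAA once, on the other strand, beginning 55 bases before it. These matches do not overlap. The Fcgr2b window held neither sequence. Among all 32851 windows of that length 7.02% held TTCNNNGAA and 23.3% held GAGGAA. The windows of Fcgr3, Fcgr4 and Fcrls also held GAGGAA, those of Fcer1g and Fcgrt did not, and TTCNNNGAA was in no other member's window. A match is a run of letters and was not tied to binding in these data.

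Fcgr3 and Fcgr4 are the other activating IgG receptors. Fcgr3 binds IgG complexes with low affinity, and it had 961, 940 and 1808 CPM in the adventitia, against 1585 and 1175 CPM for the intima. On this scale its highest and both its lowest values were adventitia values, so the groups overlapped. The means were 1237 ± 495 CPM (SD, n = 3) and 1379.9 ± 289.7 CPM (SD, n = 2), and the log2 scale put their difference at 0.39 (SE 0.47, adjusted p = 0.696 in edgeR). Its direction turned with upper-quartile scaling (-0.08) and without intima replicate 1 (-0.08). Fcgr4, which prefers the mouse IgG2 subclasses, had 269.96, 296 and 431 CPM against 400.1 and 204 CPM. Intima replicate 2 was the lowest of the 5 and intima replicate 1 the second highest. The log2 difference of 0.11 had a standard error of 0.48 (adjusted p = 0.931 in edgeR) and ran from -0.71 without intima replicate 1 to 0.65 without intima replicate 2, so it has no direction here.

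Fcgr2b, the inhibitory receptor gene (ENSMUSG00000026656), lies on the minus strand of chromosome 1 from 170960558 to 170976547 in GRCm38. It had 5156, 11516 and 11659 reads in the adventitia libraries and 6433 and 5382 in the deeper intima libraries. That is 1308, 1143 and 1159.6 CPM in the adventitia, against 429.7 and 259 CPM for the intima. The adventitia libraries were close together, within 1.14-fold, and every intima value lay below all of them. The means were 1204 ± 91.0 CPM (SD, n = 3) and 344 ± 121 CPM (SD, n = 2), a ratio of 3.50 of adventitia to intima. The log2 difference was -1.54 (SE 0.44) and did not pass (adjusted p = 0.106 in edgeR). It passed with limma voom (-1.65, adjusted p = 0.0374) and with DESeq2 on the same genes (-1.68, adjusted p = 0.0269), a setting added after seeing the data. It did not pass with DESeq2 and its own filter (-1.55, adjusted p = 0.202). Nor did it pass in edgeR with the replicate number as a block (-1.59, adjusted p = 0.278). Without intima replicate 1, which leaves 1 intima library, the edgeR difference was -2.19. The difference of Fcgr2b was negative under every alternative listed for it. The reads of Fcgr2b and Fcgr3 summed into 1 feature had a log2 difference of -0.26 (adjusted p = 0.796 in edgeR), which is a value of the sum and not of Fcgr2b. The make-up of the sum differed between the groups. Fcgr3 gave 31441 and Fcgr2b 28331 reads in the adventitia, against 48174 and 11815 in the intima. In adventitia replicates 1 and 2 Fcgr2b gave more reads than Fcgr3.

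The coding sequences of Fcgr2b and Fcgr3 are shown over the stretch where they are most alike, since a read of 50 bases that lies wholly in their identical run fits both genes. The aligned coding sequences in GENCODE M21 were 83.3% identical over 784 bases, with an identical run of 129 bases. The stretch holds that run and 20 bases on each side, on the minus strand of GRCm38. It comes from chr1:170966654-170968101 for Fcgr2b and chr1:171054147-171057812 for Fcgr3, each spanning an intron that is left out, and capitals mark the bases that differ.
Fcgr2b: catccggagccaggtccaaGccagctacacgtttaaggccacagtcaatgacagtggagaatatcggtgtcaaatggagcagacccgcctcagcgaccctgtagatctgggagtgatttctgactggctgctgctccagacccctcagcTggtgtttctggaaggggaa
Fcgr3: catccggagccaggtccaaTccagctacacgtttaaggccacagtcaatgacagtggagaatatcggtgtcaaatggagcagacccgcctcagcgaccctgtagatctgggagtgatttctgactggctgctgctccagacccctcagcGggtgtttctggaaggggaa
Over these 169 bases the genes differ at 2 positions, T20G and G150T, counted from 1 at the 5′ end with the base of Fcgr3 first. Of the distinct 50-base words of all Fcgr3 transcripts, 166 of 1733 (9.58%) also occur in Fcgr2b transcripts, and those 166 are among the 5685 of Fcgr2b. A further 229 words of Fcgr2b occur in transcripts of genes other than Fcgr3. GENCODE M21 extends Fcgr2b to 170958617, past the bound of 170960558 that the files give the gene. Some of its words may therefore lie outside the bases that were counted. Fcgr1, Fcgr4, Fcer1g, Fcgrt and Fcrls shared 0 words with any other gene in either orientation. How the authors' counting treated reads that fit several genes is not given in the sources used here, so the split of reads between Fcgr2b and Fcgr3 is uncertain to that extent. Summed, the CPM of Fcgr2b and Fcgr3 was 2269.5, 2083 and 2968 in the adventitia and 2014 and 1434 in the intima.

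Ratios of genes within a library need no scaling between libraries. Fcgr2b stood lower relative to each activating receptor gene in both intima libraries than in any adventitia library. RPKM divides CPM by gene length in kilobases and allows genes to be compared. The RPKM of Fcgr3 was 1.63, 1.82 and 3.46 times that of Fcgr2b in the adventitia libraries and 8.18 and 10.1 times in the intima libraries. Both intima ratios lay above all adventitia ratios. The ratio of Fcgr4 to Fcgr2b was 0.632, 0.793 and 1.14 in the adventitia and 2.85 and 2.41 in the intima, again without overlap. For Fcgr1 it was 0.131, 0.337 and 0.359 against 0.527 and 0.798. Fcgr2b made up 29.5, 25.3 and 16.8% of the summed RPKM of the 4 IgG receptor genes in the adventitia and 7.96 and 7.001% in the intima. Fcgr3 made up 46.1 to 58.1% and 65.1 and 70.5%, while Fcgr4 was at 18.6 to 20.1% and at 22.7 and 16.9%. The ratios share Fcgr2b as their denominator, so they are not independent of each other or of the lower Fcgr2b levels in the intima. In CPM the values of Fcgr1, Fcgr3 and Fcgr4 themselves overlapped between the groups. These proportions were computed with the levels known and are a description with no test.

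**Figure D2:**
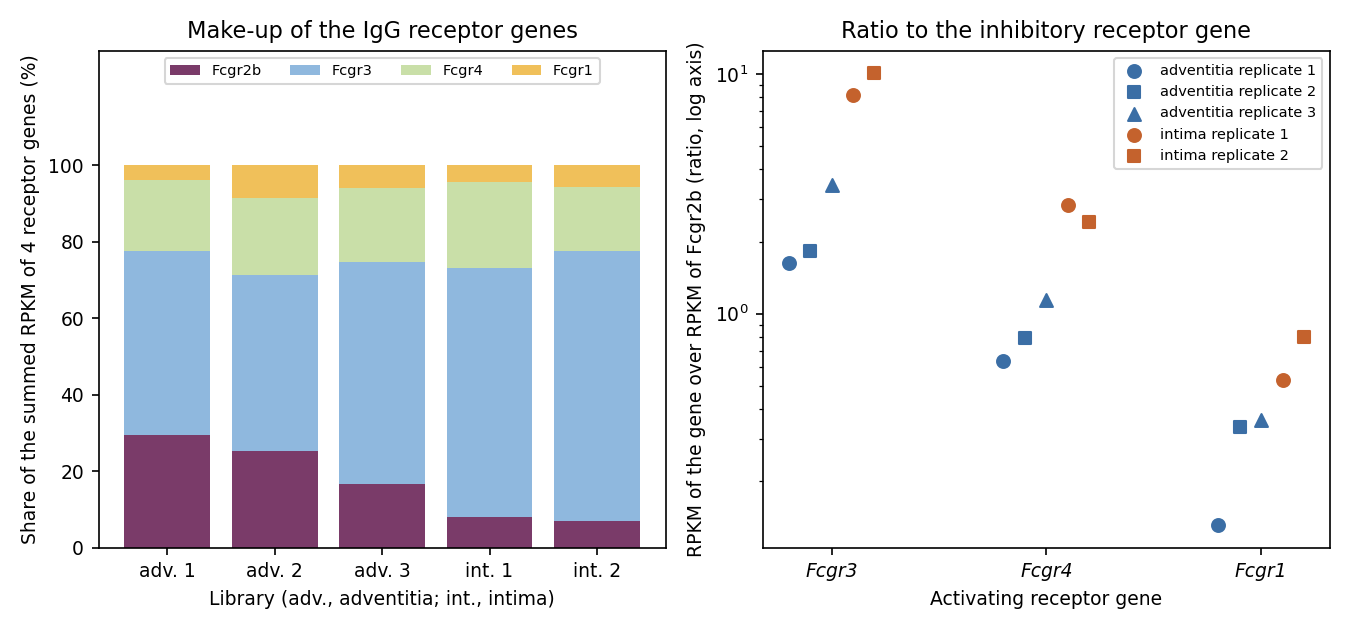
Left, the share of Fcgr2b, Fcgr3, Fcgr4 and Fcgr1 in their summed RPKM, in percent, with 1 bar per library; right, the RPKM of each activating receptor gene over that of Fcgr2b, on a log axis, with 1 point per library. The share of Fcgr2b is 16.8 to 29.5% in the adventitia bars and 7.001 and 7.96% in the intima bars, and each ratio is higher in both intima libraries than in any adventitia library. The ratios share Fcgr2b as their denominator and are not independent.

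Fcer1g, the gamma chain gene (ENSMUSG00000058715, chromosome 1, 171229572 to 171234365, minus strand), was the most abundant member. It had 4177, 5369 and 4405 CPM in the 3 adventitia samples, against 3229.9 and 1402 CPM in those of the intima. The adventitia values were within 1.29-fold of each other, while intima replicate 2 was 2.30-fold below intima replicate 1. The log2 difference was -0.74 (SE 0.51, adjusted p = 0.429 in edgeR). This value rested on the intima libraries: it was -1.72 without intima replicate 1 and -0.13 without intima replicate 2. With 1 intima library left, the spread between replicates came from the adventitia libraries alone. With TMM scaling intima replicate 1, at 3773 CPM, lay above adventitia replicate 1 at 3586 CPM. The RPKM of Fcer1g over the summed RPKM of its activating partners Fcgr1, Fcgr3 and Fcgr4 was 6.42, 7.65 and 3.69 in the adventitia and 3.13 and 1.96 in the intima. Tyrobp, which encodes the related ITAM adaptor DAP12, was also at different levels in the intima libraries, with 2249 and 851 CPM against 1353 to 1932 CPM in the adventitia.

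Fcgrt, the FcRn heavy chain gene (ENSMUSG00000003420, chromosome 7, 45092993 to 45103822, minus strand), varied least in deposited CPM among the adventitia libraries. It had 608, 633 and 692 CPM there, against 403 and 439.6 CPM for the intima, and the groups did not overlap. Its adventitia spread was 1.138-fold, close to the 1.145-fold of Fcgr2b. With TMM scaling Fcgr2b varied less, at 1091 to 1162 CPM in the adventitia against 522 to 693 CPM for Fcgrt. The log2 difference of Fcgrt, -0.38, was smaller than its standard error of 0.40 (adjusted p = 0.632 in edgeR). B2m, the light chain that FcRn shares with MHC class I, had 6469.6, 8368 and 7169 CPM against 6842 and 2807 CPM, with a log2 difference of -0.34 that missed the threshold (in edgeR SE 0.53, adjusted p = 0.773). B2m exceeded Fcgrt in RPKM in every library, 20.9 to 26.7 times in the adventitia and 34.3 and 12.9 times in the intima.

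Fcrls (ENSMUSG00000015852, chromosome 3, 87250758 to 87263738, minus strand) had 584, 464 and 709.5 CPM in the adventitia, against 349 and 292 CPM for the intima. Every intima value lay below the adventitia values. Its log2 difference was -0.63, which missed the threshold (in edgeR SE 0.42, adjusted p = 0.418). The list of microglia-type markers summed to 618 to 1232 CPM in the adventitia and to 1669 to 2629 CPM in the intima. The order of this sum was opposite to that of Fcrls, but its members were mixed. Of the list's 9 tested genes 5 had positive and 4 had negative differences. At an unadjusted p under 0.05 there were 3 of the 9 with positive and 1 with negative differences, where 22.4% of all tested genes were in either direction. After adjustment 1 of the 9 rose, where 0.522% of all tested genes did. This was Sparc, an extracellular matrix protein (log2 difference 3.33, SE 0.57, adjusted p = 0.0239 in edgeR). P2ry12, a purine receptor, had 95.4 to 218 CPM against 130 and 70.1 CPM.

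By RPKM, Fcer1g was the first and Fcgr3 the second of the 7 genes in each of the 5 libraries, and Fcgr1 was the last in each. In the adventitia Fcer1g was at 5813 ± 791 RPKM (SD, n = 3), Fcgr3 at 712 ± 285, Fcgrt at 371 ± 24.9, Fcgr2b at 313 ± 23.6, Fcgr4 at 265 ± 68.9, Fcrls at 251 ± 52.6 and Fcgr1 at 84.2 ± 34.6 RPKM. The ranges of Fcgr2b and Fcgr4, and those of Fcgr4 and Fcrls, overlapped, and those of the other neighbours in this order did not. In the intima the order was Fcer1g at 2895 ± 1616 RPKM (SD, n = 2), Fcgr3 at 795 ± 167, Fcgrt at 242 ± 14.9, Fcgr4 at 240.3 ± 111, Fcrls at 137 ± 17.2, Fcgr2b at 89.4 ± 31.4 and Fcgr1 at 56.3 ± 3.70 RPKM, where only the ranges of Fcgrt and Fcgr4 overlapped among neighbours. Even Fcgr1 exceeded 91.4 to 95.9% of tested genes in RPKM in its library.

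Fcgr2b, Fcgr4, Fcgr3 and Fcer1g lie in this order within 273808 bases of chromosome 1, a stretch with 15 annotated genes in the files. Of these 7 were tested and 0 were called in edgeR, where 0.671% of all tested genes were. Sdhc, a subunit of respiratory complex II between Fcgr3 and Fcer1g, had 121 to 131 CPM across adventitia libraries, against 159 and 146 CPM for the intima, and its log2 difference was 0.53 (adjusted p = 0.543 in edgeR). Pcp4l1, also between them, had 0.199 to 0.761 CPM against 32.8 and 18.1 CPM, the largest difference among the 7 tested genes of the stretch, and did not pass (log2 difference 5.91, SE 1.52, adjusted p = 0.0875 in edgeR). Cfap126, the remaining tested gene, had 0.761 to 11.2 CPM against 12.6 and 0.0481 CPM. Fcgr3 has the microRNA gene Mir6546 within its bounds and Fcgr4 the gene Gm26110, both outside their exons, and no member shares exon bases with another gene.

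The genes whose pattern over the 5 libraries was nearest to that of a member were found by the root mean square difference of log2 TMM-normalised CPM after centring each gene, among 6477 genes whose mean log2 CPM was 4 or more. Nearest to Fcgr1 were Tmem219, Pnkd and Itpkb, at 0.14, 0.15 and 0.18. Nearest to Fcer1g were Nop10, Cklf and Ppp2ca, at 0.06, 0.06 and 0.08, and nearest to Fcrls were Mgl2, Ndufaf8 and Mrpl42, at 0.13, 0.14 and 0.14. Among the members the nearest to Fcrls was Fcgrt, at 0.23. Fcgr1 and its signalling partner Fcer1g stood 0.60 apart, at rank 1016 of the 6477 genes from Fcgr1 and rank 1036 from Fcer1g. With 5 libraries many genes share a pattern, and these distances are a description.

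Of the 12 other Fc receptor and Fc binding genes listed, Fcrl1 and Trim21 had the most reads and the other 10 did not exceed 2.54 CPM in a library. Fcrl1, a B cell Fc receptor-like gene, had 1.52, 8.14 and 9.65 CPM across adventitia libraries, against 17.1 and 34.0 CPM for the intima, and missed the threshold (log2 difference 2.14, SE 1.27, adjusted p = 0.353 in edgeR). Trim21, the cytosolic antibody receptor, had 2.54 to 2.88 CPM against 7.28 and 7.93 CPM (adjusted p = 0.569 in edgeR). The IgE receptor genes Fcer1a, Ms4a2 and Fcer2a did not exceed 1.09 CPM anywhere. Pigr, Fcmr, Fcamr, Fcrla, Fcrlb, Fcrl5 and Fcrl6 were at no more than 2.54 CPM. Ms4a2, Fcmr, Fcrlb, Fcrl5 and Fcrl6 had 0 reads in both intima libraries, where 3 reads would be 0.144 to 0.200 CPM. Of the 12 genes of this list 3 were tested. In edgeR 0 were called and 0 were at an unadjusted p under 0.05, where 0.671% and 22.4% of all tested genes were.

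Other receptors that signal through the gamma chain were also examined. Of 9 listed genes 7 were matched and 4 tested, with a median log2 difference of 0.12. In edgeR 0 of the 4 were called and 1 was at an unadjusted p under 0.05, where 0.671% and 22.4% of all tested genes were. Clec4n (Dectin-2), a receptor for fungal mannans, had 133, 168 and 303 CPM across adventitia libraries, against 481 and 236 CPM for the intima, and Clec4d had 65.1 to 278 CPM against 83.0 and 49.9 CPM. Clec4e (Mincle), which binds mycobacterial glycolipid, had 27.4, 146 and 51.5 CPM against 0.334 and 7.79 CPM, or -4.06 on the log2 scale (in edgeR SE 1.30, adjusted p = 0.113).

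The signalling genes downstream of these receptors were read in both groups. Of 28 tested ITAM kinases and adaptors 0 were called in edgeR, where 0.671% of all tested genes were, and 2 were at an unadjusted p under 0.05, where 22.4% of all were, with a median log2 difference of 0.53 against 0.14 over all genes. Tyrobp had a log2 difference of 0.15 and Lat2, a membrane adaptor, one of 0.69 (adjusted p = 0.905 and 0.429 in edgeR). Syk, the kinase that docks on the ITAM, had 52.8, 88.6 and 74.2 CPM against 24.9 and 99.1 CPM, and Lyn, the kinase that phosphorylates it, had 189, 451 and 349 CPM against 356 and 248 CPM. Of 18 tested inhibitory receptors and phosphatases 1 rose, 0 fell and 17 did not pass, with a median of 0.75, where 0.522% of all tested genes rose. At an unadjusted p under 0.05 there were 4 of the 18, all with positive differences, where 22.4% of all tested genes were in either direction. The called gene was Pecam1, an ITIM receptor and a marker of endothelial cells, with 0.796 to 4.66 CPM across adventitia libraries, against 193 and 326 CPM for the intima, a log2 difference of 6.64 (in edgeR SE 0.75, adjusted p = 0.00220). Ptpn6, the phosphatase SHP-1, had 179 to 212 CPM against 353 and 649.6 CPM, with a log2 difference of 1.55 that did not pass (SE 0.41, adjusted p = 0.0900 in edgeR). Inpp5d, the lipid phosphatase SHIP1 that Fcgr2b recruits, had 187, 228 and 144 CPM against 249 and 193 CPM (log2 difference 0.50, adjusted p = 0.556 in edgeR). Clec4a2, an ITIM lectin, had 360.3 to 428 CPM against 206 and 199.5 CPM without passing (adjusted p = 0.336 in edgeR).

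Of 25 tested genes of the actin and phagosome machinery 0 were called in edgeR, where 0.671% of all tested genes were. At an unadjusted p under 0.05 there were 4, 3 with positive and 1 with negative differences, where 22.4% of all were. The median was 0.37. Cfl1, the actin-severing protein cofilin, had 584 to 766 CPM against 889.8 and 1195 CPM, and Arpc2, a subunit of the Arp2/3 complex, had 819 to 1036 CPM against 897 and 1138 CPM (adjusted p = 0.271 and 0.648 in edgeR).

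**Figure D3:**
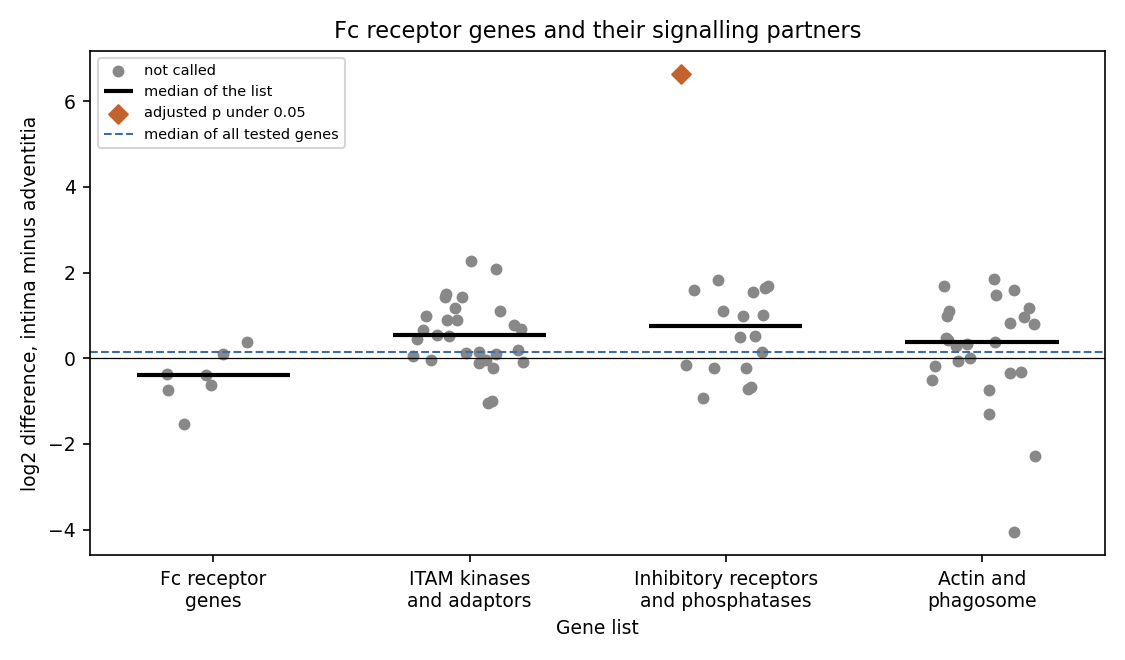
log2 difference, intima minus adventitia, of each tested gene of 4 lists, with 1 point per gene, a black bar for the list's median and a dashed line for the median of all tested genes, 0.14. The median is -0.38 for the Fc receptor genes, 0.53 for ITAM kinases and adaptors, 0.75 for inhibitory receptors and phosphatases and 0.37 for actin and phagosome genes, and the only called gene is Pecam1 at 6.64.

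Other cells that carry Fc receptors were followed by their markers, and the part of such cells in the member levels was not tested. Dendritic cells and B cells carry Fcgr2b. Of 10 tested dendritic cell markers 8 had negative and 2 had positive differences. In edgeR 2 were called lower in the intima, Cd209a and Kmo, and 0 higher, where 0.149% and 0.522% of all tested genes were. The summed level of the list was 271 to 470.04 CPM in the adventitia against 35.3 to 44.1 CPM in the intima, with Xcr1 at 0 reads in the intima. Of 6 tested B cell markers, 4 with positive and 2 with negative differences, 0 were called in edgeR, where 0.671% of all tested genes were. At an unadjusted p under 0.05 there were 2 of these markers, 1 in each direction, where 22.4% of all tested genes were in either direction. Their list summed to 309 to 844 CPM against 909.7 to 1095 CPM, nearly all of it from Ighm, while Ms4a1 and Vpreb3 had 0 reads in the intima. Endothelial markers, cells of which can carry Fcgr2b and Fcgrt, summed to 33.8 to 53.5 CPM in the adventitia and 690.1 to 823 CPM in the intima. Of 9 tested endothelial markers 7 had positive and 2 had negative differences. In edgeR 3 of the 9 were called higher, where 0.522% of all tested genes were, and 0 lower.

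Natural killer cells carry Fcgr3, and neutrophils and nonclassical monocytes carry Fcgr4. Markers of NK and T cells summed to 3.57 to 11.4 CPM in the adventitia and 0.267 to 39.9 CPM in the intima. Among them Ncr1 and Klrb1c had 0 reads in the intima and no more than 0.507 CPM elsewhere. The 4 tested markers of this list went the other way for the most part, with 3 positive and 1 negative difference and a median log2 difference of 1.77. In edgeR 0 of the 4 were called, where 0.671% of all tested genes were. Neutrophil markers summed to 60.9 to 125 CPM against 4.68 to 101.1 CPM, with Ly6g, Elane, Ltf and Retnlg at 0 reads in the intima. Of 5 tested neutrophil markers 2 had positive and 3 had negative differences. Of 10 tested monocyte markers 1 rose, Ace, and 1 fell, Plac8, where 0.522% of all tested genes rose and 0.149% fell. The monocyte list summed to 1233 to 1739.7 CPM against 604 to 1079 CPM. Mast cell markers, whose cells carry Fcer1g, summed to 12.4 to 31.4 CPM against 21.5 to 31.4 CPM. Of this list Cpa3, Tpsb2, Tpsab1, Cma1, Mcpt4 and Ms4a2 had 0 reads in the intima, while of 4 tested markers 2 had positive and 2 had negative differences. Fibroblast markers summed to 682 to 1535 CPM against 283 to 304 CPM, and smooth muscle markers to 5.16 to 14.7 CPM against 86.2 to 265 CPM. Of 10 tested fibroblast markers 9 had negative and 1 had a positive difference, with 1 called lower in edgeR. Of 6 tested smooth muscle markers 4 had positive and 2 had negative differences, with 1 called higher. Of all tested genes 0.149% were called lower and 0.522% higher.

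**Figure D4:**
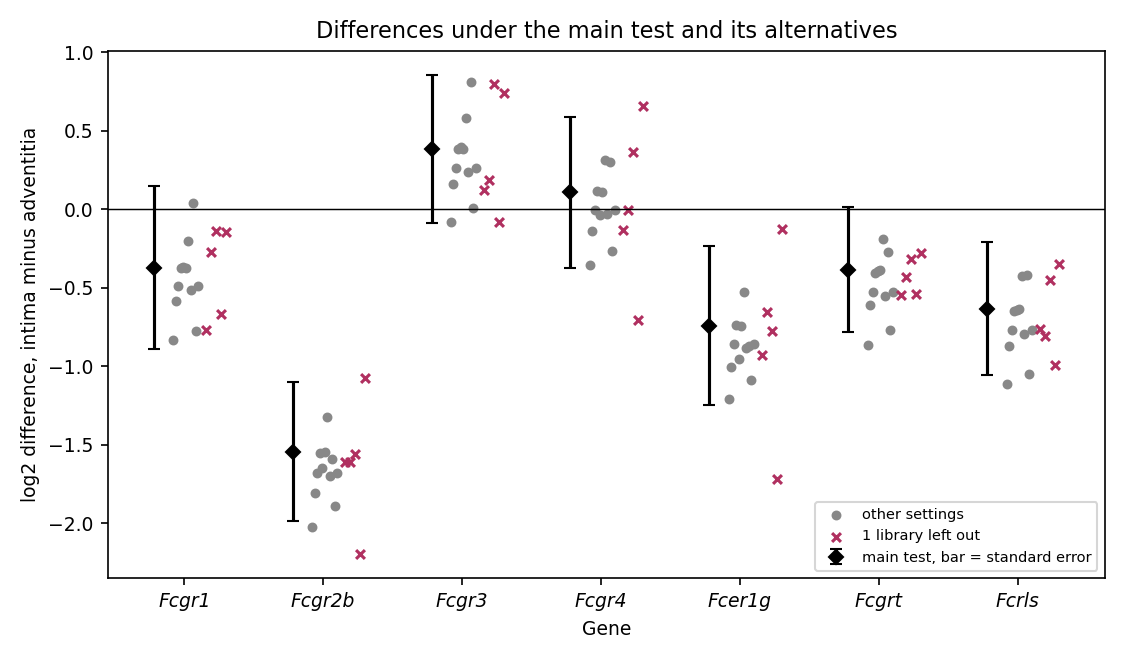
log2 difference, intima minus adventitia, of each Fc receptor gene in the main edgeR test (diamonds, with bars of 1 standard error), under other settings (grey points) and with 1 library left out (crosses). All plotted values of Fcgr2b, Fcer1g, Fcgrt and Fcrls are below 0, from -2.19 to -1.07 for Fcgr2b, leaving out the sum of Fcgr2b and Fcgr3, while those of Fcgr1, Fcgr3 and Fcgr4 fall on both sides of 0.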

How the data were processed

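Poly-A RNA of sorted cells was reverse transcribed (SMARTer Ultra Low kit), amplified over 12 cycles and sequenced as single reads of 50 bases, per the labels' protocols. The authors deposited 1 table per library with whole read counts, CPM and RPKM per Ensembl gene. The deposited CPM and RPKM equalled those computed from the deposited counts (0 mismatches at a tolerance of 1e-06). The submitters' processing notes name GRCm38, STAR 2.0.4b, Subread and featureCounts 1.4.5, with no strand or multi-mapping setting. Symbols were found for 40254 of 41388 IDs; of 206 listed symbols 3 (Lilrb4a, Pira6 and Pira11) were not matched.

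Counts were tested with edgeR 4.0.16 (glmQLFit, glmQLFTest) in R 4.3.3 over all 5 libraries with TMM factors after filterByExpr (minimum count 10, minimum total 15). A gene was called at a Benjamini-Hochberg adjusted p under 0.05. The standard error is the difference over the square root of F. An exact permutation test of 3 against 2 libraries cannot go below p = 0.1 and was not used. Other tools were DESeq2 1.42.0 and limma 3.58.1, Python 3.11.15, pandas 2.3.3 and matplotlib 3.10.9. Adjusted p-values printed with no tool are from edgeR.

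Members and lists were chosen with earlier results of these data known. Named genes were the members, called list genes, the 2 list genes highest in RPKM, the highest of each marker list and the 3 genes nearest in pattern. Syk, Lyn, Inpp5d, Clec4e, Sdhc, Pcp4l1, Cfap126, P2ry12 and the markers named at or near 0 were chosen after their values were seen. Predicted and clone-named genes were left out of the pattern search. Some marker genes are not reported here.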

Additional observations from a re-analysis of the deposited data

How the results depend on the processing

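Of 114 alternative values of the 7 log2 differences, 96 kept their direction and their side of the threshold, 4 newly passed it and 14 turned. All 16 alternatives of Fcgrt and of Fcrls kept direction and call. Fcgr2b passed with limma voom (-1.65), with DESeq2 restricted to edgeR's tested genes (-1.68; this setting was added after seeing the data) and without intima replicate 1, and the values with 1 library left out ran from -2.19 to -1.07. Fcer1g passed only without intima replicate 1, where the spread came from the adventitia libraries alone, and its left-out range was -1.72 to -0.13. Fcgr1 turned to 0.037 with the replicate number as a block, and its left-out range was -0.77 to -0.14. Fcgr3 turned with upper-quartile scaling (-0.081) and without intima replicate 1 (-0.080), with a left-out range up to 0.80. The sum of Fcgr2b and Fcgr3 reads (-0.26), counted among the alternatives of both genes, lies between their own values by construction and is no new estimate of either. Fcgr4 turned with upper-quartile scaling (-0.35), library size alone (-0.14), RLE scaling (-0.0053), limma voom (-0.039), a filter of 1 CPM (-0.031), thinning to the smallest library (-0.27) and DESeq2 on the same genes (-0.0053), and its left-out range was -0.71 to 0.65. The cause of these turns was not tested.

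The number of Fc receptor genes called was 0, and 1 with limma voom, 1 with DESeq2 on the same genes and 0 to 2 with 1 library left out. Over all genes 90 were called, 70 of them higher in the intima. The count was 2011 with DESeq2 and its own filter (471 higher), 1190 with DESeq2 on the same genes (490 higher), 839 with limma voom (214 higher), 386 with no filter (312 higher), 396 with a filter of 1 CPM (135 higher), 183 with the replicate block (133 higher) and 10 to 389 with 1 library left out, lowest without adventitia replicate 1 and highest without intima replicate 1. With upper-quartile scaling it was 75 (46 higher) and with library size alone 93 (59 higher). The correlations of deviations between same-numbered libraries were 0.035 and 0.0057 over genes. With 2 intima libraries the deviations from their mean mirror each other, so these values cannot show or exclude a pairing. The replicate block pairs libraries by number only and changed no call of the 7 genes. Leaving out an intima library assumes that the lone library varies as the adventitia libraries do.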
